A study of Mus musculus with 7 samples.

Results

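The miR-193 and miR-365 miRNAs are made from 4 mouse hairpins that lie in 2 pairs, Mir193 beside Mir365-2 on chromosome 11 and Mir193b beside Mir365-1 on chromosome 16. Every entry of the array that comes from these hairpins was taken, whichever arm it represents. This gave 4 entries of the 696 mouse miRNA entries on the array, and all 4 are among the 252 miRNAs of the deposited table: miR-193 and miR-193*, the 3' and 5' arms of the Mir193 hairpin, miR-193b, the 3' arm of Mir193b, and miR-365, the 3' arm of both Mir365 hairpins. In the scanner files these are named mmu-miR-193a-3p, mmu-miR-193a-5p, mmu-miR-193b-3p and mmu-miR-365-3p. The array has no entry for the 5' arms of the Mir193b and Mir365 hairpins, so they were not measured.

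The arrays compared soft tissue sarcoma cells of p53 knockout mice with and without depletion of Rb, the retinoblastoma tumour suppressor that restrains E2F-driven entry into the cell cycle. Control primary cells (2 arrays) carried a non-targeting shRNA, and Rb-depleted primary cells (2 arrays) carried an shRNA against Rb. Both were kept in monolayer culture after puromycin selection. Rb-depleted secondary cells (3 arrays) were recovered from spheres that Rb-depleted cells formed in serum-free methylcellulose with EGF, bFGF and B27, and were passaged 1 time in monolayer before RNA was taken. All 3 groups share the loss of p53, the lentiviral transduction and the selection. Depletion rests on 1 shRNA, and no array of control secondary cells was analysed here, so that Rb depletion and passage through spheres cannot be told apart where secondary cells are compared with control primary cells. The sources used here do not give the number of tumours or animals, the age of the mice, or whether replicate arrays came from separate cultures, so p-values measure the spread between these RNA samples, which may be technical. The array measures no mRNA, and the Rb level of these samples was not analysed here.

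A miRNA pairs with its target mRNAs mainly through its seed, the bases near its 5' end, and lowers their translation or stability. The Mir193b and Mir365 pair is best known from brown fat, where it was reported to promote adipocyte differentiation and to hold back the muscle programme in precursor cells. miR-193b and its paralog from Mir193 have also been reported to act as tumour suppressors that repress cyclin D1, the G1 cyclin whose kinase phosphorylates Rb, and urokinase, a protease of cell invasion, while miR-365 has been reported to repress cyclin D1 as well.

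The mature sequences are shown because the seed is the feature by which members resemble or differ from each other. They are given 5' to 3' as in RefSeq (table build GRCm38.p6), with the seed (bases 2 to 8) in capitals.
miR-193: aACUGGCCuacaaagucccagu
miR-193b: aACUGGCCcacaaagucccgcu
miR-193*: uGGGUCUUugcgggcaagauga
miR-365: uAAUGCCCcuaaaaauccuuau
miR-193 and miR-193b had the seed ACUGGCC in common, and among 1679 mouse mature miRNA names in RefSeq these 2 alone carried it. They were identical at 19 of 22 bases and differed by U9C, A20G and G21C, where the first base is that of miR-193 and positions are counted from 1 at the 5' end. None of the 3 differences falls in the seed. The seeds of miR-193* and miR-365 were found in no other RefSeq mouse miRNA name. GC content was 31.8% in miR-365 and 50% in miR-193, against 54.5% in miR-193* and 59.1% in miR-193b. Because brightness on an array depends on the probe as well as on the amount of RNA, levels are compared below between samples. Where 2 members are set against each other on the same array, the size of their difference does not measure relative amounts. Only its change between groups is compared.

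In the NCBIM37 build named in the array files, Mir193 (ENSMUSG00000065395) lies at chr11:79525471-79525536 and Mir365-2 (ENSMUSG00000065489) at chr11:79539902-79540013, with 14365 bases between them. Mature miR-193 occupies chr11:79525511-79525532 and miR-193* chr11:79525477-79525498. Mir193b (ENSMUSG00000076972) lies at chr16:13449616-13449694 and Mir365-1 (ENSMUSG00000065449) at chr16:13453933-13454019, with 4238 bases between them, and mature miR-193b occupies chr16:13449663-13449684. All 4 hairpins are on the plus strand and overlap no other annotated gene. The nearest protein-coding gene upstream is Rab11fip4 for Mir193, at 13945 bases, and Mkl2 for Mir193b, at 31993 bases. Mature miR-365 is encoded in both pairs, at chr11:79539969-79539990 and chr16:13453988-13454009, so its signal is the sum of what both loci give.

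All 7 arrays detected all 4 members, by the call of the scanner software. Each entry was read from 20 spots, none of them saturated, and the error that the software gave for the total gene signal, the summed brightness of a miRNA's probes, was between 7.09% and 9.71% of the signal. Of the 696 mouse miRNAs, 258 were detected on secondary replicate 1 and 276 to 287 on each of the other arrays. The summed total gene signal of the 252 miRNAs came to 538586 and 550498 on the control arrays and between 432616 and 501515 on the other 5. Without normalization the median log2 difference from control cells over these miRNAs was -0.26 for primary and -0.46 for secondary Rb-depleted cells, and the changes below, made on quantile-normalized log2 values, are relative to that shift. The 4 arrays of primary cells and secondary replicate 1 lay on 1 slide and secondary replicates 2 and 3 on the other. All 7 mesenchymal marker miRNAs, such as miR-199a-3p and miR-214, were detected on all arrays, with a summed signal of 73752 and 80194 in control, 63312 and 73187 in Rb-depleted primary, and 67859 to 81233 in Rb-depleted secondary cells. That sum was mostly miR-21, at up to 69912. Of these 7 markers 1 was called in secondary against control cells, miR-199a-3p, higher by 0.37 (adjusted p = 0.0298 by limma). Against primary Rb-depleted cells 3 were called, all higher: miR-199a-3p (0.60), miR-199a-5p (0.58) and miR-143 (0.62). Over all 252 miRNAs 22.6% and 20.2% were called in these comparisons. Below 0 in both were miR-10b (-0.19 and -0.17) and miR-145 (-0.05 and -0.08), neither of them called. The part of the markers in the results below was not tested. Of the epithelial markers (the miR-200 family and miR-205) 0 of 6 were detected on any array, and of the 6 blood cell markers only miR-451 was detected, on 1 array.

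On the deposited values miR-193b was the 1 member called lower (adjusted p under 0.05 by limma), in Rb-depleted secondary against control primary cells alone. Its deposited log2 value was 8.76 and 8.72 on the control primary arrays, 8.07 and 8.004 on the Rb-depleted primary arrays, and 7.27, 8.07 and 7.58 on the Rb-depleted secondary arrays. All 5 Rb-depleted arrays were below both control arrays, and secondary replicate 2 stood at the level of the Rb-depleted primary arrays. Before normalization the total gene signal came to 490 and 486 on the control arrays and 301 and 238 on the Rb-depleted primary arrays. On the secondary arrays it was 146, 231 and 165, with replicates listed in the same order as above. Secondary replicate 2 was then below both Rb-depleted primary arrays.

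In Rb-depleted secondary cells miR-193b was lower than in control primary cells, with a log2 fold change of -1.10 (SE 0.230, 95% interval -1.67 to -0.52, adjusted p = 0.0290 by limma), or 0.467 times the control level. It was the 1 member of 4 called at an adjusted p under 0.05 in this comparison, in which 22.6% of the 252 miRNAs were called and 9.52% were called lower. In Rb-depleted primary cells the log2 fold change was -0.70 (SE 0.252, 95% interval -1.33 to -0.07), or 0.615 times the control level. That difference had an unadjusted p of 0.0346 by limma and did not pass adjustment over the 252 miRNAs (adjusted p = 0.159), where 1.59% of all miRNAs were called and 1.19% called lower. No member was called there, and miR-193b was the 1 member with an unadjusted p under 0.05, as were 64 of the 252 miRNAs. From the Rb-depleted primary to the secondary cells miR-193b differed by -0.40 (SE 0.230, 95% interval -0.97 to 0.18, adjusted p = 0.268), with 20.2% of all miRNAs called and 7.54% called lower. In that comparison 0 members were called by limma and 0 had an unadjusted p under 0.05. With single arrays left out this value ran from -0.21 without secondary replicate 1 to -0.61 without secondary replicate 2, and only the latter passed (adjusted p = 0.0314).

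Over the 3 groups, miR-193b passed the moderated F-test at the threshold of 0.1 (adjusted p = 0.0514 by limma), as did 43.3% of all miRNAs, and miR-193, miR-193* and miR-365 did not (adjusted p of 0.281, 0.241 and 0.342). With Dunnett's adjustment of the limma fit for the pair of comparisons with control cells, miR-193b had an adjusted p of 0.00645 in secondary and an adjusted p of 0.0587 in primary Rb-depleted cells. It was therefore not among the miRNAs called in the same direction in both, which made up 6.75% of the table.

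The call for miR-193b in secondary cells depended on single arrays. Its log2 fold change stayed between -1.31 and -0.92 when each of the 7 arrays was left out in turn, but the adjusted p rose to 0.162 without control replicate 1, 0.115 without control replicate 2, 0.0539 without secondary replicate 1 and 0.0803 without secondary replicate 3. Within the slide that held the control arrays, secondary replicate 1 was -1.47 from the mean of the control arrays on the log2 scale. That array had the fewest detected miRNAs of the series. The mean of secondary replicates 2 and 3 on the other slide was -0.92 from the control mean. With the slide as a term, which leaves secondary replicate 1 alone to be set against the control arrays, the fold change was -1.47 (adjusted p = 0.0535).

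**Figure D1:**
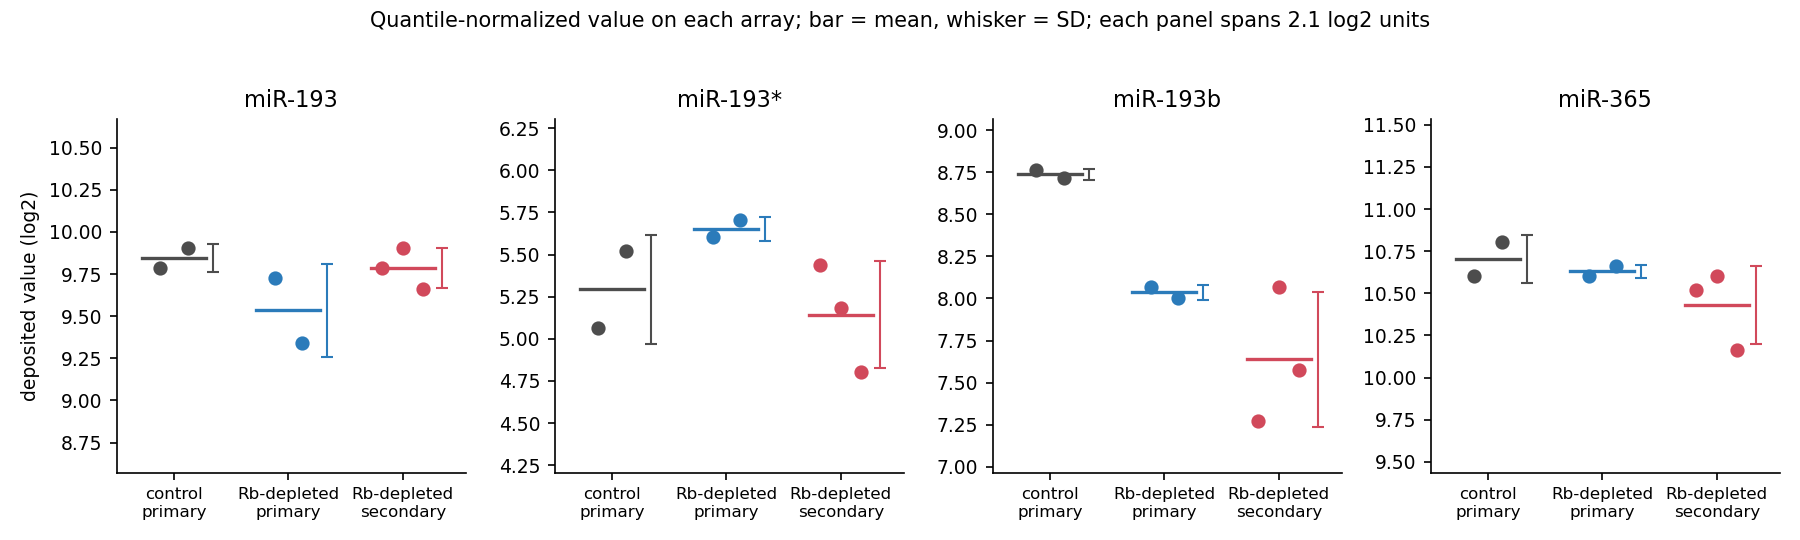
Deposited quantile-normalized log2 value (vertical axis) of each member on each of the 7 arrays, by group (horizontal axis). Points are arrays, bars group means and whiskers 1 SD, and every panel spans the same number of log2 units. The 5 Rb-depleted arrays lie below both control arrays for miR-193b, whose primary and secondary Rb-depleted arrays overlap. For each other member at least 1 Rb-depleted group overlaps or touches the control arrays.

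miR-193, the paralog with the same seed, passed no test. Its log2 values were 9.79 and 9.90 on the control arrays, 9.73 and 9.34 on the Rb-depleted primary arrays, and 9.79, 9.90 and 9.66 on the secondary arrays. Secondary cells covered the range of the control arrays, and both Rb-depleted primary arrays were lower, one of them close to control. In total gene signal the values were 969 and 1076 in control, 915 and 633 in Rb-depleted primary, then 830, 928 and 713 in Rb-depleted secondary cells. The log2 fold change relative to control cells was -0.31 (SE 0.157, 95% interval -0.70 to 0.08, adjusted p = 0.275 by limma) in Rb-depleted primary cells. In Rb-depleted secondary cells it was -0.06 (SE 0.144, 95% interval -0.42 to 0.30, adjusted p = 0.798), and its sign turned to 0.13 when arrays were scaled to their 75th percentile. Secondary cells differed from Rb-depleted primary cells by 0.25 (SE 0.144, adjusted p = 0.265). Without primary replicate 2 this was 0.06 and the difference of primary from control cells -0.12, and without primary replicate 1 they were 0.45 and -0.51.

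miR-193*, the 5' arm of the same Mir193 hairpin, was read at total gene signals of 23.3 to 56.3. Its log2 values were 5.06 and 5.52 on the control arrays, 5.60 and 5.70 on the Rb-depleted primary arrays, and 5.44, 5.18 and 4.81 on the secondary arrays. Both Rb-depleted primary arrays were above every other array, and the secondary arrays overlapped the control arrays. No comparison passed the test. The log2 fold change relative to control cells was 0.36 (SE 0.247, adjusted p = 0.407 by limma) in Rb-depleted primary cells and -0.15 (SE 0.225, adjusted p = 0.676) in Rb-depleted secondary cells. From Rb-depleted primary to secondary cells it was -0.51 (SE 0.225, 95% interval -1.07 to 0.05, adjusted p = 0.156), the lowest adjusted p of the 4 members in that comparison. In primary cells the difference was 0.19 under scaling to the 75th percentile and, without normalization, -0.05 beside the median of -0.26 over all miRNAs.

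miR-365, which both pairs encode, passed no test on the normalized values. Its log2 values were 10.60 and 10.80 on the control arrays, 10.60 and 10.66 on the Rb-depleted primary arrays, and 10.52, 10.60 and 10.17 on the secondary arrays. The primary groups overlapped, and the highest secondary array had the same normalized value as the lower control array. The log2 fold change relative to control cells was -0.07 (SE 0.168, 95% interval -0.49 to 0.35, adjusted p = 0.826 by limma) in Rb-depleted primary cells, with a sign that turned to 0.01 under scaling to the 75th percentile. In Rb-depleted secondary cells it was -0.27 (SE 0.153, 95% interval -0.66 to 0.11, adjusted p = 0.253), and against Rb-depleted primary cells -0.20 (SE 0.153, adjusted p = 0.368).

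The total gene signal of miR-365 before normalization came to 1883 and 2205 on the control arrays, 1826 and 1666 on the Rb-depleted primary arrays, and 1313, 1267 and 1082 on the secondary arrays. On that scale the 3 secondary arrays were below all 4 primary arrays. Without normalization the log2 fold change of miR-365 in secondary against control cells was -0.74 (adjusted p = 0.00842 by limma). That of miR-193* was -0.68 (adjusted p = 0.0466 by limma), beside the shift of -0.46 in the median miRNA. In that setting 3 of the 4 members were called lower, as were 109 of all 252 miRNAs. In bulk RNA a lower value in all cells and a smaller share of cells with the miRNA cannot be told apart.

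Counted by arrays that do not overlap, 3 of the 4 members were separated between Rb-depleted primary and control cells (miR-193 and miR-193b lower, miR-193* higher), where 57.5% of all miRNAs were. Between Rb-depleted secondary and control cells miR-193b alone was separated, where 52% of all miRNAs were, and between secondary and primary Rb-depleted cells miR-193* alone, where 51.2% were. The median log2 fold change of the 4 members was -0.19, -0.21 and -0.30 in these comparisons, beside 0.01, 0.03 and 0.02 over all 252 miRNAs. The members' median moved with single arrays. For Rb-depleted primary cells it was -0.11 without control replicate 2 or primary replicate 2. In secondary against control cells it ran from -0.07 without secondary replicate 3 and -0.09 without control replicate 2 to -0.38 without control replicate 1.

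**Figure D2:**
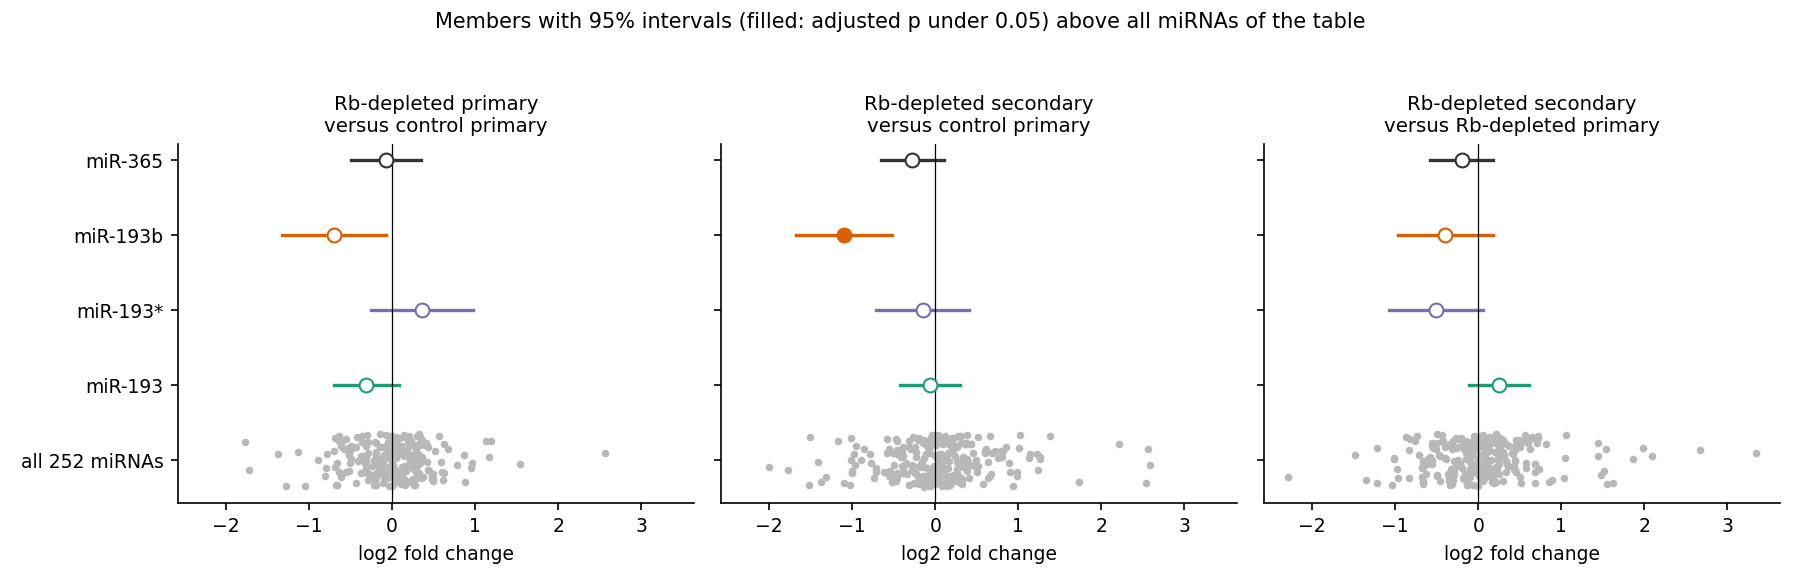
Log2 fold change (horizontal axis) of each member with its 95% interval in the 3 comparisons, above the fold changes of all 252 miRNAs (grey points, spread vertically at random for visibility). Filled symbols have an adjusted p under 0.05, which miR-193b alone reached, in Rb-depleted secondary against control primary cells.

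Since miR-193 and miR-193b have the same seed but come from different chromosomes, their difference on the same array was compared between groups. A factor common to all miRNAs of an array cancels in it. The probe sequences were not analysed here, so how far the probes of each paralog also read the other was not tested. miR-193 exceeded miR-193b by 1.03 and 1.19 on the log2 scale on the control arrays, by 1.66 and 1.33 on the Rb-depleted primary arrays, and by 2.52, 1.84 and 2.09 on the secondary arrays. The 3 groups did not overlap. The mean difference grew by 1.04 from control to Rb-depleted secondary cells (exact two-sided permutation test, p = 0.1, the smallest that 2 against 3 arrays allow) and by 0.39 from control to Rb-depleted primary cells (exact p = 0.333, the smallest for 2 against 2). From Rb-depleted primary to secondary cells it grew by 0.65 (exact p = 0.2). These are 3 of 12 within-array comparisons made, and after adjustment over the 12 the lowest p was 0.3, so that none passed.

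Within the chromosome 16 pair, miR-365 exceeded miR-193b by 1.84 and 2.09 on the control arrays, by 2.54 and 2.65 on the Rb-depleted primary arrays, and by 3.25, 2.54 and 2.59 on the secondary arrays. All Rb-depleted arrays were above both control arrays. The miR-193b values are those of the comparison above, so this is not a separate result. The difference grew by 0.83 from control to secondary cells (exact p = 0.1, adjusted p = 0.3) and by 0.63 from control to Rb-depleted primary cells (exact p = 0.333). It did not separate secondary from primary Rb-depleted cells (0.20, exact p = 0.9), and without secondary replicate 1 this last value turned to -0.03. The array does not tell which of the 2 Mir365 hairpins the miR-365 came from.

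Within the chromosome 11 pair, miR-193 minus miR-365 came to -0.82 and -0.90 on the control arrays, -0.87 and -1.32 on the Rb-depleted primary arrays, and -0.73, -0.70 and -0.50 on the secondary arrays. Secondary cells had the highest values, by 0.45 over Rb-depleted primary cells (exact p = 0.1, adjusted p = 0.3) and by 0.21 over control cells (exact p = 0.2). The arms of the Mir193 hairpin, miR-193 minus miR-193*, differed by 4.72 and 4.38 on the control arrays, 4.13 and 3.63 on the Rb-depleted primary arrays, and 4.35, 4.72 and 4.86 on the secondary arrays. From control to Rb-depleted primary cells it changed by -0.67 (exact p = 0.333), and in secondary cells it exceeded the value of Rb-depleted primary cells by 0.76 (exact p = 0.1, adjusted p = 0.3).

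**Figure D3:**
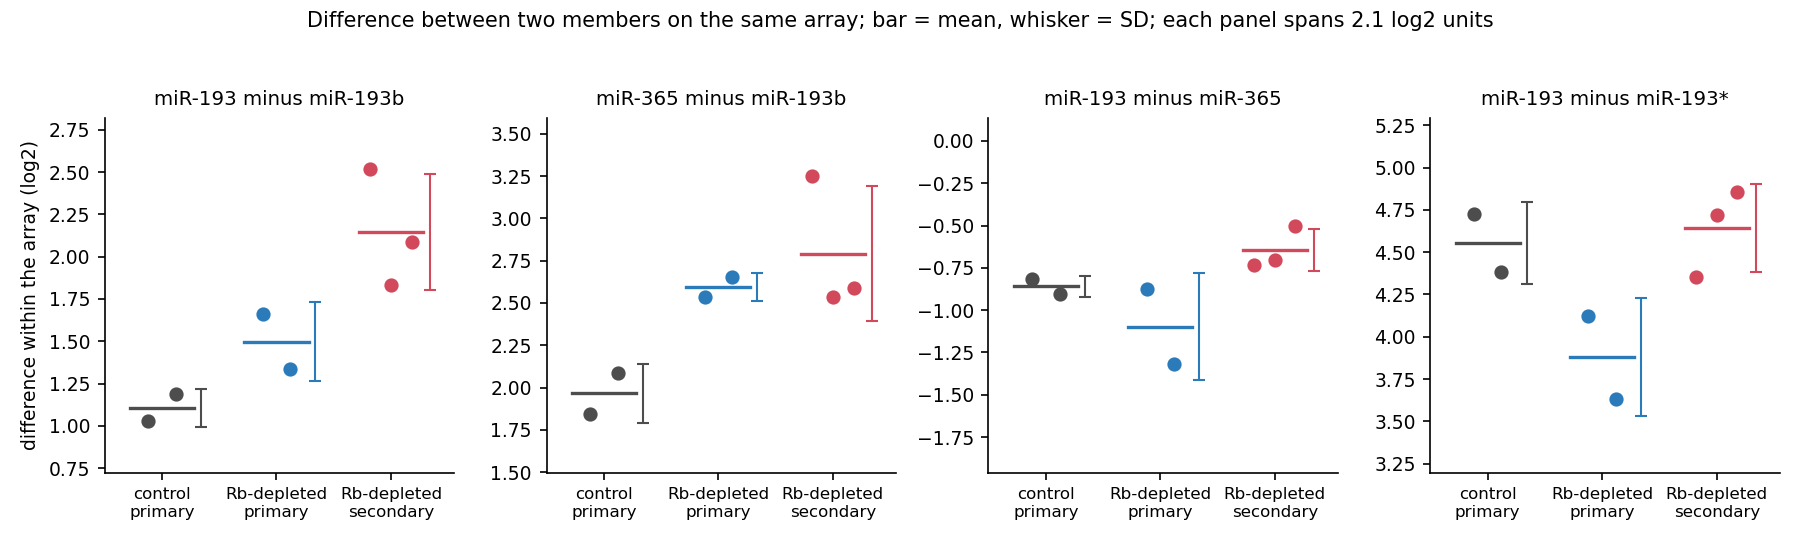
Log2 difference between a pair of members on the same array (vertical axis) by group, for the 4 pairs compared. Points are arrays, bars means and whiskers 1 SD. The difference between miR-193 and miR-193b runs from 1.03 to 1.19 on control arrays and from 1.84 to 2.52 on Rb-depleted secondary arrays.

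The array reads miR-193, miR-193b and miR-365 with 2 probes each and miR-193* with 4. Each probe was set against the array's median over the 252 miRNAs, a description added after the data were seen. Both miR-193b probes were lower than in control cells, with log2 differences of -0.51 and -0.48 in Rb-depleted primary and -1.03 and -0.95 in Rb-depleted secondary cells, and with no overlap with the control arrays. Both miR-365 probes had differences of 0.13 and 0.16 in Rb-depleted primary and -0.30 and -0.22 in secondary cells, also without overlap. The normalized entry gave -0.07 and -0.27 with overlap. For probe 2 the gap was narrow, at 2.80 on secondary replicate 2 beside 2.83 on control replicate 1. How many of all probes separate on this scale was not analysed here. On the deposited values 57.5% and 52% of the 252 miRNAs were separated in these comparisons. The miR-193 probes differed from control by -0.12 and -0.03 in Rb-depleted primary cells, both with overlap. In secondary cells they differed by 0.10 and 0.18, the latter without overlap. The normalized miR-193 entry gave -0.31 and -0.06, with overlap in secondary cells alone. Of the 4 miR-193* probes, 1 had no spot above background on any array and another had none on 5 arrays. The other miR-193* probes gave total probe signals of 10.6 to 30.3, with changes of 0.31 and 0.34 in Rb-depleted primary and -0.22 and -0.18 in secondary cells.

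**Figure D4:**
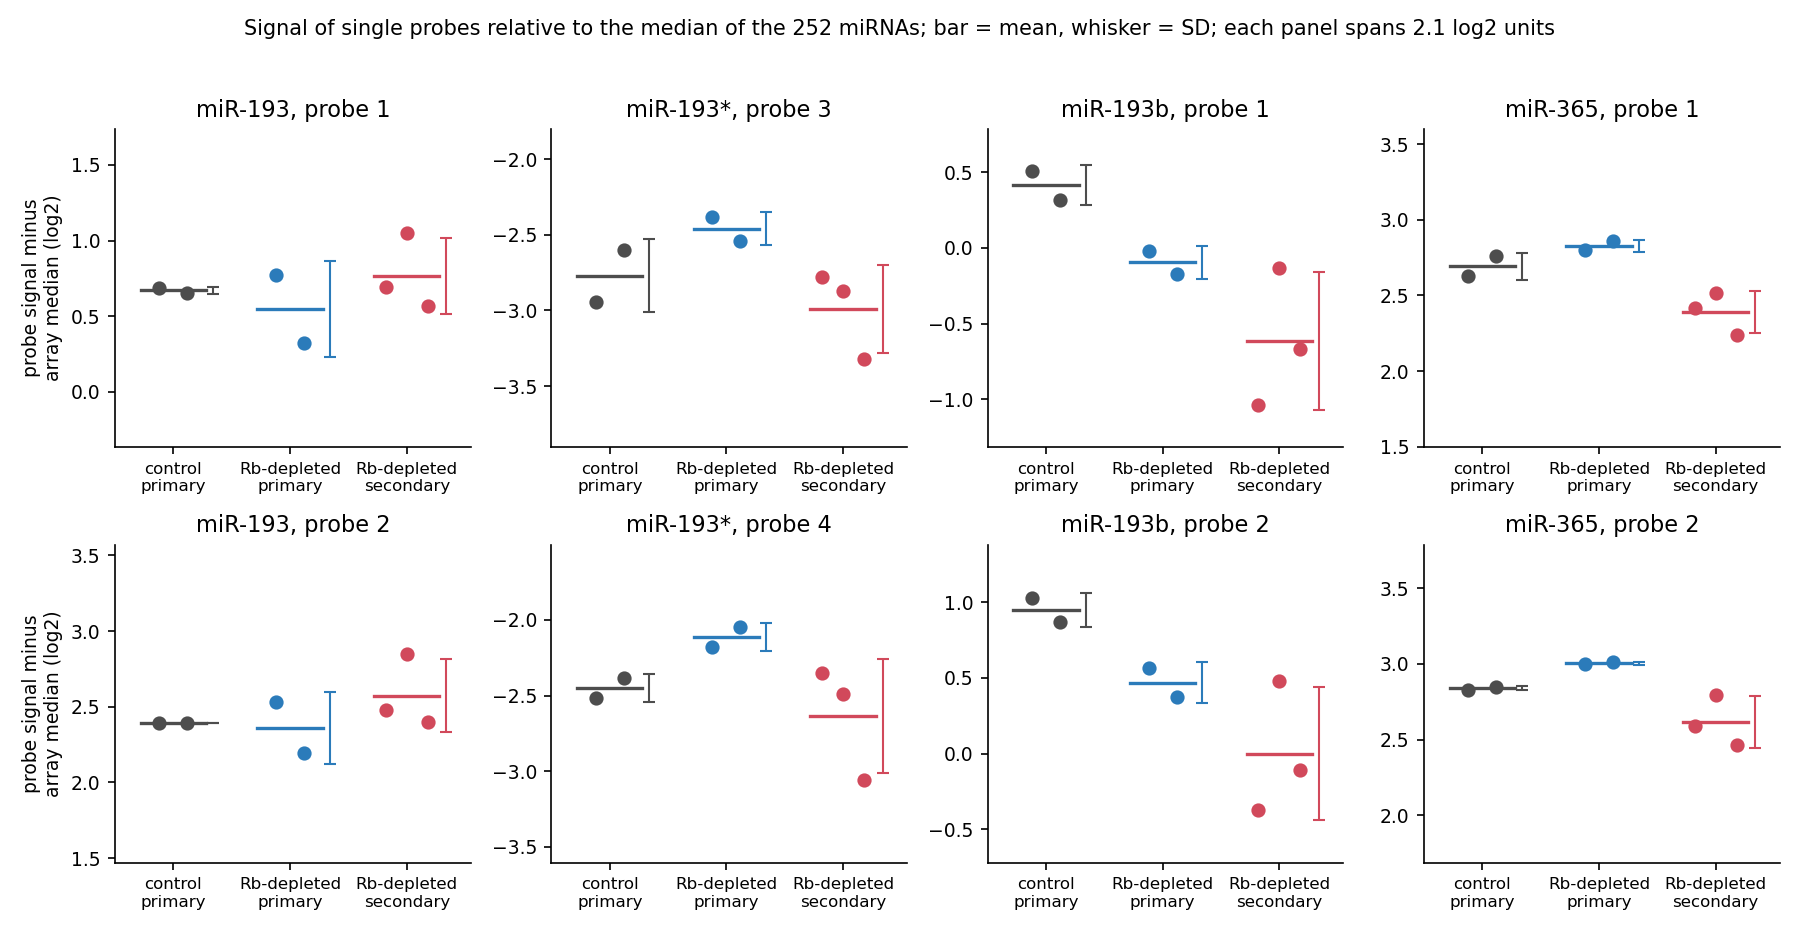
Log2 signal of each probe that was above background on all 7 arrays, relative to the array's median miRNA (vertical axis), by group. Points are arrays, bars means and whiskers 1 SD. Both probes of a member give the same order of group means, and both miR-193b probes are lower in every Rb-depleted array than in the control arrays.

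Likeness between miRNAs over the 7 arrays is given as Pearson's r of the deposited log2 values, as a description. The members were not most like each other. miR-193b and miR-365 had r = 0.63, miR-193* and miR-365 r = 0.73, miR-193 and miR-193b r = 0.26, and the arms miR-193 and miR-193* r = -0.30. The 3 miRNAs most like miR-193b were miR-409-3p (r = 0.894), miR-2135 (r = 0.890) and miR-140* (r = 0.880). Those most like miR-365 were miR-221 (r = 0.959), miR-31* (r = 0.941) and miR-450a-5p (r = 0.916). For miR-193 they were miR-409-5p (r = 0.906), miR-299* (r = 0.891) and miR-341 (r = 0.890), and for miR-193* they were miR-99b* (r = 0.926), miR-106b* (r = 0.895) and miR-29b* (r = 0.881). The 7 points are shared by all these values and fall into 3 groups.

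Other miRNAs of fat differentiation give the setting for the Mir193b and Mir365 pair. Of 16 miRNAs reported to favour fat differentiation 13 were in the table, and of these 0 were called in Rb-depleted primary cells (2 had an unadjusted p under 0.05), 3 were called higher in Rb-depleted secondary than in control cells and 3 in the comparison of secondary with Rb-depleted primary cells, again higher. Over all 252 miRNAs 22.6% and 20.2% were called in these comparisons, so the share of the list was near the background. Against control, the 3 were miR-378, which lies in an intron of the coactivator gene Ppargc1b, at 2.58 (SE 0.411, adjusted p = 0.0145 by limma), miR-30d of the miR-30 family, at 0.43 (SE 0.0920, adjusted p = 0.0298), and miR-196a, which represses the homeobox gene Hoxc8, at 2.21 (SE 0.559, adjusted p = 0.0411). Against Rb-depleted primary cells they were miR-143, at 0.62 (SE 0.157, adjusted p = 0.0465), miR-378, at 1.99 (SE 0.411, adjusted p = 0.0307), and miR-196a, at 3.35 (SE 0.559, adjusted p = 0.0172). Both miR-378 and miR-196a were read at low signal, with deposited log2 values of 2.01 to 5.20 and of 2.22 to 6.30 over the 7 arrays. The list's median log2 fold change was 0.02, 0.06 and 0.09 in primary against control, secondary against control and secondary against primary cells. The other miRNAs of the list had no call. With arrays scaled to the 75th percentile, miR-378 alone was called against control, and against Rb-depleted primary cells miR-378 and miR-196a were called higher and 1 miRNA lower. Without normalization both were called higher in each comparison, beside 4 called lower against control and 2 called lower against Rb-depleted primary cells. Over all 252 miRNAs 109 and 35 were then called lower in these comparisons.

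Of 12 miRNAs reported to hold back fat differentiation 8 were in the table. In Rb-depleted primary cells 0 of the 8 were called, and 1 had an unadjusted p under 0.05. In Rb-depleted secondary against control cells, where 57 of all 252 miRNAs were called and 33 of them higher, 3 were called higher: miR-27b, reported to repress the fat regulator Pparg, at 0.66 (SE 0.169, adjusted p = 0.0419 by limma), miR-130a, reported to repress Pparg as well, at 0.45 (SE 0.0880, adjusted p = 0.0246), and miR-155, reported to repress Cebpb, at 0.99 (SE 0.240, adjusted p = 0.0398). Against Rb-depleted primary cells miR-34a, a direct target of p53 in cells that have it, was higher by 1.51 (SE 0.316, adjusted p = 0.0307). Deposited log2 values of miR-34a were low, at 3.44 to 5.66 over the 7 arrays. The list's medians were 0.03, 0.32 and 0.20 in the same order. The list's median in secondary against control cells was 0.33 under scaling to the 75th percentile, where 0 of the 8 were called. Without normalization it was -0.12, beside -0.46 over all 252 miRNAs. In that setting 3 of the 8 were called lower, as were 109 of the 252. miR-34a was called higher against Rb-depleted primary cells under both settings.

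Of the 7 muscle miRNAs miR-206 alone was detected, and its log2 fold change was -0.11 (SE 0.483, adjusted p = 0.933 by limma) in Rb-depleted primary and -0.78 (SE 0.441, adjusted p = 0.254) in Rb-depleted secondary cells. The other 6, miR-1 and miR-133a among them, were detected on 0 of 7 arrays.

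**Figure D5:**
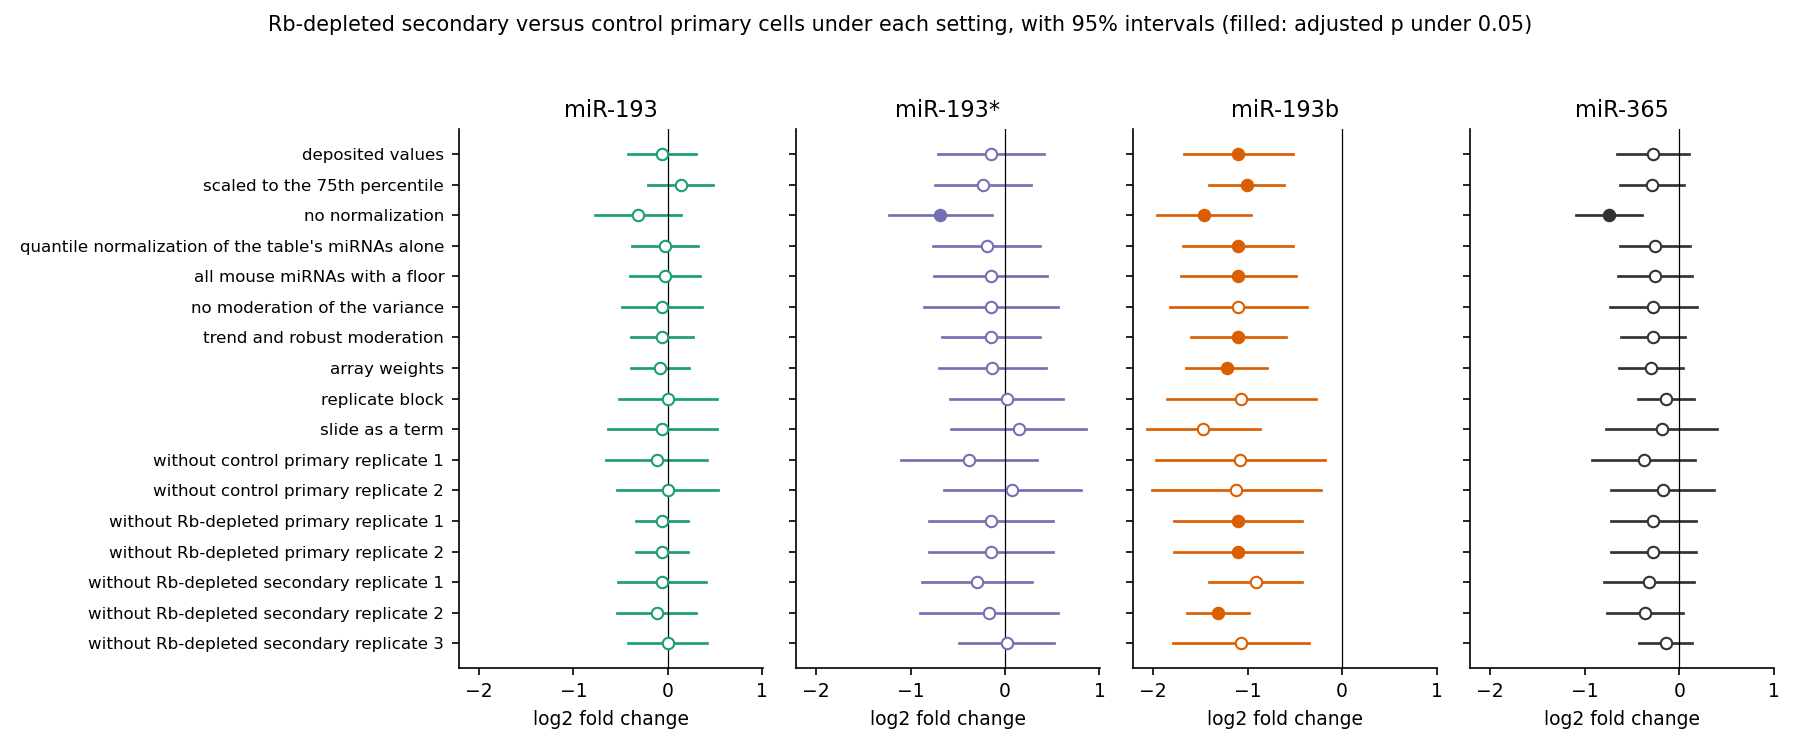
Log2 fold change of each member in Rb-depleted secondary against control primary cells with its 95% interval (horizontal axis) under each processing setting and with each array left out (vertical axis). Filled symbols have an adjusted p under 0.05. miR-193b stays below 0 throughout, between -1.47 and -0.92, and loses the call in 7 of the 16 other settings.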

How the data were processed

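Total RNA of 7 samples was labelled with Cy3 and hybridized to Agilent mouse miRNA arrays. The authors read each array with Agilent Feature Extraction (11.0.1.1 in the file headers, 10.7.3.1 in the submitters' processing notes) and deposited, per spot and miRNA, background-subtracted intensity values, not normalized between arrays, with a detection call. Their deposited table gives log2 values that GeneSpring had quantile-normalized, for 252 mouse miRNAs besides 11 control rows, which were left out here. Quantile normalization of the log2 total gene signal of 718 features gave the table to within 3.2e-06. Table names were matched to scanner names by these values within 0.0001, since 195 names differ. After normalization 109 of 1260 replicate pairs had equal values.

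Log2 values of all arrays were fitted with limma 3.58.1, run under R 4.3.3 with statmod 1.5.0, giving each group its own mean. The p-values were Benjamini-Hochberg adjusted over 252 miRNAs at 0.05. The F-test used 0.1, followed by Dunnett's adjustment. Differences within an array were compared by exact permutation. Python 3.11.15 with pandas 2.3.3 and numpy 2.4.6 handled the tables, and matplotlib 3.10.9 drew the figures. The fits were tested on simulated data. Hairpins were located in NCBIM37 with its GENCODE annotation, and their sequences are the same as in RefSeq.

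The members of both pairs, their 3 most alike miRNAs by Pearson's r, and in each list every miRNA past the threshold were named. Members and lists were chosen with earlier results of these data known. Alternatives tried were no normalization, scaling to the 75th percentile, quantile normalization of the 252 miRNAs alone, all mouse miRNAs with a signal floor of 1, unmoderated variance, trend and robust moderation, array weights, a replicate block, slide as a term, the median spot signal and each array left out. Values of single probes and of the secondary array on the control slide were included once the data had been seen. The number of arrays limits the precision.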

Additional observations from a re-analysis of the deposited data

How the results depend on the processing

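The fold change of miR-193b in Rb-depleted secondary cells stayed below 0 in all settings and was called in 6 of 9. It was lost with unmoderated variance (adjusted p = 0.0740 by limma), the replicate block (adjusted p = 0.134) and slide as a term. Members called there numbered 3 without normalization and 0 with unmoderated variance, the block or slide. Members passing the F-test numbered 3, 0 and 0 without normalization, with unmoderated variance and with the block, and by Dunnett's adjustment 1 (miR-193b) under the 75th percentile, no normalization, robust moderation, array weights or slide. With arrays left out members called ranged from 0 to 1 in both comparisons of secondary cells, from 0 to 2 by F-test (0 without either control array or secondary replicate 3) and from 0 to 1 by Dunnett (1 without secondary replicate 1 or 2).

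Same-numbered replicates did not deviate together over miRNAs (correlations of 0.13, -0.02 and -0.07). Each correlation rests on 1 deviation per group, from replicates 1 and 2, which in secondary cells lay on different slides. It therefore cannot tell whether the numbers pair the arrays. Under the block 0, 4 and 0 miRNAs (44, 68 and 68 at an unadjusted p under 0.05) were called in primary against control, secondary against control and secondary against primary cells, 6 by F-test and 2 by Dunnett, and miR-193* in secondary cells was 0.017.

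Over all miRNAs the calls for primary cells were 4, and 0 (75th percentile, 42 at an unadjusted p under 0.05), 27 (no normalization), 8 (floor), 8 (weights) and 0 (slide, 62 unadjusted). For secondary against control they were 57 (33 higher, 24 lower), and 29 (75th percentile, 9 higher, 20 lower), 114 (no normalization, 5 higher, 109 lower), 34 (unmoderated) and 6 (slide). For secondary against primary they were 51, and 15 (unmoderated) and 0 (slide, 67 unadjusted). The F-test gave 109, and 62 (unmoderated) and 24 (slide), and Dunnett 17, and 9 (75th percentile), 42 (no normalization), 26 (weights) and 5 (slide). With arrays left out these ranged from 0 to 22, 1 to 74, 2 to 66, 33 to 124 and 6 to 20. The counts moved by more than 1.5 times, and the cause was not tested.

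Of the members' fold changes these turned sign: miR-193* in primary cells without normalization (-0.049, from 0.36, beside a median of -0.26 over all miRNAs), miR-365 in primary cells at the 75th percentile (0.011; with arrays left out -0.17 to 0.028), miR-193 in secondary cells at the 75th percentile (0.13), and miR-193* in secondary cells with slide (0.14; with arrays left out -0.38 to 0.077). miR-365 minus miR-193b, secondary against primary, was -0.0097 from median spot signals and -0.034 to 0.32 with arrays left out, the lowest without secondary replicate 1. miR-193 minus miR-193*, secondary against control, was -0.081 to 0.26, the lowest without control replicate 2.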
